A study of Mus musculus with 6 samples.

Results

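The genes described here are 34 genes of endoplasmic reticulum (ER) stress and the unfolded protein response (UPR), taken by name from a list among the 55421 genes of the deposited tables. All 34 were found and all 34 passed the filter on low counts. They were measured in C2C12, an established line of mouse myoblasts, which form myotubes in low-serum medium. The normal group (C2C12-CUG5) carried a stably transfected GFP plasmid with 5 CTG repeats, and the DM1 group (C2C12-CUG200), a model of myotonic dystrophy type 1, carried the same plasmid with 200 CTG repeats. Both groups had been selected with G418 and were sequenced as total RNA at differentiation day 4, with insulin in the differentiation medium of both. There were 3 libraries in each group. The sources call them biological replicates without saying whether they came from separate transfections or clones, so the p-values measure the spread between these libraries.

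The ER folds secreted and membrane proteins, and an overload of unfolded proteins frees 3 sensors from the chaperone BiP. ATF6 is cut to give a transcription factor. IRE1 (*Ern1*) splices the *Xbp1* mRNA, and both branches raise ER chaperones and the genes of ER-associated degradation (ERAD), which sends misfolded proteins to the proteasome. PERK (*Eif2ak3*) phosphorylates the initiation factor eIF2α, which slows translation but favors that of ATF4. ATF4 and its target CHOP (*Ddit3*) then raise genes of amino acid supply and the feedback phosphatase subunit *Ppp1r15a*. Part of this pathway is known to be active during myoblast differentiation. Cleavage of ATF6, splicing of *Xbp1* and phosphorylation of PERK are not seen in counts per gene.

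The 34 genes fell into 15 genes of chaperones and folding enzymes, 4 of ERAD, 5 of the sensors and their factors, and 10 of the ATF4/CHOP arm. Promoter sequences of RefSeq (GRCm38.p6), from 250 bases before to 50 bases after the start, were found for 30 of them. *Manf*, *Hyou1*, *Atf6*, and *Ppp1r15b* had none in that table. The ER stress element ERSE, which ATF6 binds together with NF-Y, was searched on both strands as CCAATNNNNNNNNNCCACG. It was present in 7 of 13 chaperone promoters, *Hspa5*, *Hsp90b1*, *Calr*, *Canx*, *Pdia6*, *Dnajc3*, and *Creld2*, and in 1 of 4 ERAD promoters, *Syvn1*. It was in none of the 9 promoters of the ATF4/CHOP arm and in 0.119% of all 32851 promoter windows. Without its last base, an ERSE core that includes the full element, it was in 11 of the 30 promoters, where 0.365% of all windows held it. The ERSE-II element, ATTGGNCCACG, was in the promoters of *Dnajb11* and *Herpud1* and in 0.0365% of all windows. The element bound by ATF4, searched as TGATGNAA, was in 4 of the 9 promoters of the ATF4/CHOP arm (*Atf3*, *Trib3*, *Chac1*, and *Asns*), in that of *Herpud1*, and in 3.97% of all windows. With a final T, as TGATGNAAT, it was in none of the 30 and in 0.965% of all windows. The UPRE element TGACGTGG was in none of the 30 and in 0.676% of all windows, and TGACGTCA, the cAMP response element, was in the promoter of *Ppp1r15a* and in 1.79% of all windows. A match describes the letters of the window and not binding.

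The sequences below show the matches in 8 of these genes, *Hspa5*, *Hsp90b1*, and *Calr* as the most abundant chaperones and the others as called genes, each on the strand of its gene, with the matched element in capitals. In *Calr*, *Pdia4*, *Atf3*, and *Trib3*, and in the later of the pair of matches in *Hsp90b1*, the element is on the other strand and so appears reversed. *Pdia4* holds the ERSE core only. The stretches are from chr2:34772015-34772053 (*Hspa5*, plus strand), chr10:86705523-86705666 (*Hsp90b1*, minus), chr8:84847065-84847103 (*Calr*, minus), chr6:47813592-47813629 (*Pdia4*, minus), chr16:22857842-22857872 (*Dnajb11*, plus), chr1:191183426-191183453 (*Atf3*, minus), chr2:152344029-152344056 (*Trib3*, minus), and chr7:45526263-45526290 (*Ppp1r15a*, minus).
Hspa5: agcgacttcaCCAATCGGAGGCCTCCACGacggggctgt
Hsp90b1: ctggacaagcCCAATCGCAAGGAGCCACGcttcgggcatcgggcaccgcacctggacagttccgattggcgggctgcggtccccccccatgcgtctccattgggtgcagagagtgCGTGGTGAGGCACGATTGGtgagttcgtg
Calr: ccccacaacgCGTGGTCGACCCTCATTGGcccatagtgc
Pdia4: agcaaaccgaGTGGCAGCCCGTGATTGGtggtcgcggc
Dnajb11: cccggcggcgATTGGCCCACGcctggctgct
Atf3: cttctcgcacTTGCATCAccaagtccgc
Trib3: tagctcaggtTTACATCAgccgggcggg
Ppp1r15a: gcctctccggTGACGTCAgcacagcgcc

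Library totals lay between 61707889 and 80957325 counts, and mitochondrial genes took between 8.90% and 13.5% of them. In each group 1 library had a lower mitochondrial share than the others, normal library 1 with 9.04% beside 12.3% and 12.6%, and DM1 library 3 with 8.90% beside 13.4% and 13.5%. By the chi-square per degree of freedom of the counts divided by 4, DM1 library 3 was nearest to DM1 library 2 (30.7), followed by normal library 2 (38.3), normal library 1 (42.0), DM1 library 1 (45.4), and normal library 3 (48.7). The lowest count of any of the 34 genes in any library was 298. Muscle genes were expressed in both groups. Of 11 myogenic markers, 8 were lower in the DM1 group (72.7%, where 8.73% of all tested genes were lower), or between 5 (without normal library 3 or DM1 library 2) and 8 with single libraries left out, and their summed level was between 8846 and 9725 CPM in the normal libraries and between 5060 and 6351 CPM in the DM1 libraries. Of 9 markers of undifferentiated or cycling myoblasts, *Cd34* and *Id2* were higher (22.2%, where 7.13% of all tested genes were higher). With single libraries left out, between 1 and 3 markers were higher. The summed level was between 826 and 849 CPM in the normal and between 891 and 1022 CPM in the DM1 libraries. The median log2 fold change of these 9 markers was -0.13, 5 of them were negative, and *Id3* and *Mki67* lay wholly below the normal libraries without passing the test. The part of these marker differences in the values below was not tested, and fewer cells of a type and less RNA per cell cannot be told apart. No single marker of another cell type was above 4.33 CPM for leukocytes, 9.79 for endothelium, 8.77 for epithelium, or 0.0573 for adipocytes in any library, and *Ptprc*, *Adgre1*, *Epcam*, *Krt5*, and *Adipoq* were at 0 in all 6. Of these markers, *Tek* was lower in the DM1 group (log2 fold change -0.95, not called without DM1 library 2) and *Krt14* was higher (0.85), while the endothelial markers *Cdh5* and *Kdr* were at 0.147 CPM or less. The other tested endothelial marker went the other way from *Tek* (0.59), with its DM1 libraries wholly above the normal ones. The other tested epithelial marker was at -0.26, and neither passed the threshold.

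The question was whether the chaperone branch of the UPR and its ATF4/CHOP arm differed between DM1 and normal cells. Genes of the UPR were called in both directions. With the quasi-likelihood test of edgeR, adjusted over 19005 genes by the Benjamini-Hochberg method, 3 of the 34 genes were higher in the DM1 group (*Manf*, *Pdia4*, and *Ddit4*), 6 were lower (*Atf3*, *Ppp1r15a*, *Dnajb11*, *Trib3*, *Hyou1*, and *Atf6*), and 25 did not pass the threshold of 0.05. This is 26.5% of the 34 genes, where 15.9% of all tested genes were called. Higher genes made up 8.82% (7.13% of all tested genes) and lower genes 17.6% (8.73% of all tested genes). With the cutoffs of the study, which add an absolute log2 fold change over 1, the count was 0 by edgeR and by DESeq2, where 2.18% of all tested genes passed; by edgeR at an unadjusted p-value under 0.05, with no cutoff on the fold change, it was 4 higher and 10 lower genes, where 14.7% of all tested genes were higher and 16.0% lower at that threshold. The DM1 libraries lay wholly above the normal ones in 4 genes (11.8%, against 17.9% of all tested genes) and wholly below in 10 genes (29.4%, against 19.3%). The log2 fold changes ran from -0.87 to 0.47 with a median of 0.03, and the median of all tested genes was 0.02.

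**Figure D1:**
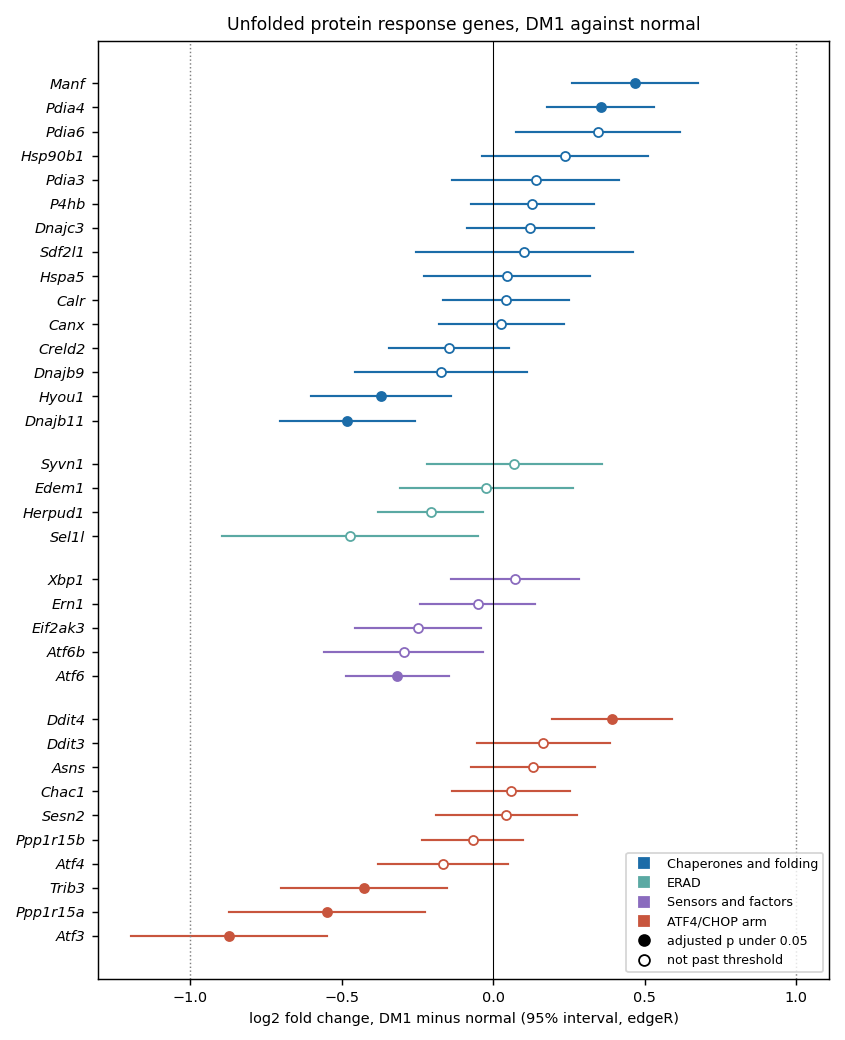
Log2 fold change of each of the 34 genes, DM1 minus normal, on the horizontal axis (points, edgeR) with 95% intervals (lines), grouped and colored by role; filled points have an adjusted p-value under 0.05 and dotted lines mark the cutoff of 1. The 9 filled points lie on both sides of 0, from -0.87 for *Atf3* to 0.47 for *Manf*, and no point reaches a dotted line.

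The calls changed with the libraries in the fit. When single libraries were dropped, between 0 and 4 genes were higher and between 1 and 6 lower, and the only gene called in all 6 of these fits was *Atf3*. Without normal library 1 there was 1 higher and 1 lower gene, without normal library 2 there were 1 and 3, without normal library 3 there were 0 and 1, and without DM1 library 2 there were 0 and 2. Without DM1 library 1 there were 3 and 4, and without DM1 library 3 there were 4 and 6. Over all tested genes, the same fits called between 1028 genes (without normal library 3) and 3789 genes (without DM1 library 3). On the log2(TPM + 1) scale, *Atf3* was the only called gene of the 34 (limma), where 6.54% of all tested genes were called. The direction of each of the 9 called genes held in all 20 alternative settings.

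Per transcript length (TPM), the 7 most abundant of the 34 genes were chaperones or folding enzymes. The order began with *Calr* (850 ± 53.6 in the normal and 807 ± 158 in the DM1 group, SD, n = 3 each), *Hsp90b1* (698 ± 38.5 and 748 ± 48.2), *Hspa5* (533 ± 56.2 and 499.6 ± 24.2), and *P4hb* (456 ± 51.4 and 459 ± 71.8). The groups overlapped in all 4 genes, and among neighbours the libraries of *Calr* and *Hsp90b1*, and those of *Hspa5* and *P4hb*, overlapped, while all of *Hsp90b1* lay above all of *Hspa5*. At the other end were *Atf3* (7.91 ± 0.671 and 3.93 ± 0.143 TPM) and *Sdf2l1* (8.10 ± 1.54 and 7.96 ± 1.13 TPM). *Atf4* was the most abundant gene of its arm, at 234 ± 20.9 and 191 ± 7.15 TPM, and *Ddit3*, at 97.7 ± 8.21 and 98.9 ± 1.17 TPM, lay near *Asns*, at 107 ± 11.2 and 107 ± 8.86 TPM. The 15 chaperone genes together took between 3682 and 4185 TPM in the normal libraries and between 3757 and 4123 TPM in the DM1 libraries, so the groups overlapped on this scale. In CPM their sum was between 5933 and 6072 in the normal and between 6199 and 7100.0 in the DM1 libraries, without overlap.

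**Figure D2:**
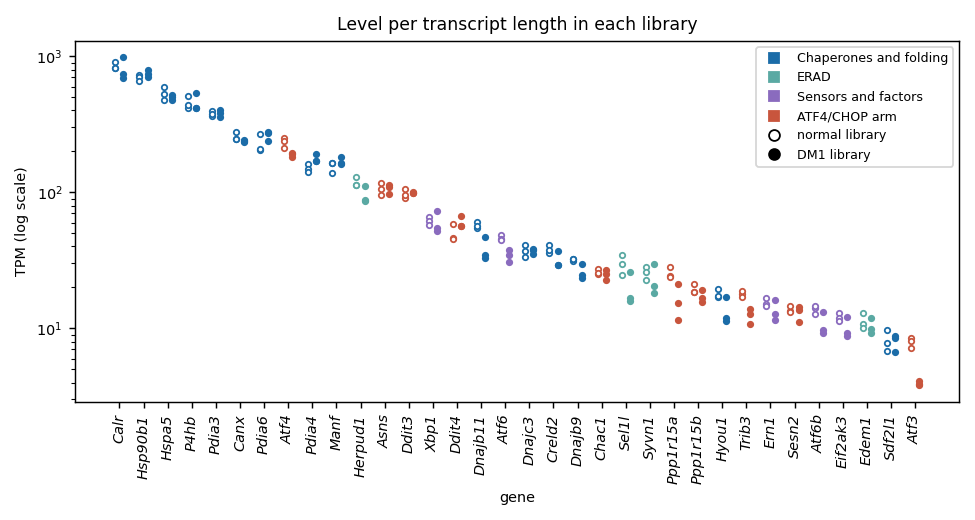
TPM of each gene on a log axis, in order of the mean over the 6 libraries; open points are the normal and filled points the DM1 libraries, colored by role. Chaperones fill the upper end, with *Calr* at 850 TPM in the normal group, and *Atf3* is the lowest, at 7.91 TPM in the normal and 3.93 TPM in the DM1 group.

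Among the chaperones, *Hspa5* and *Hsp90b1* did not pass the test. *Hspa5*, which encodes BiP, the chaperone that holds the sensors inactive, had 883, 848, and 770.4 CPM in the normal libraries and 990.2, 864, and 728 CPM in the DM1 libraries 1, 2, and 3. The DM1 libraries spanned the whole normal range, and the log2 fold change was 0.05 with a 95% interval from -0.23 to 0.32 (adjusted p = 0.845, edgeR). *Hsp90b1*, the ER form of HSP90, had 1142, 1211, and 1140 CPM in the normal and 1588, 1382, and 1146 CPM in the DM1 libraries. DM1 libraries 1 and 2 were above all normal ones and DM1 library 3 was within their range, with a log2 fold change of 0.24 (interval from -0.04 to 0.51, adjusted p = 0.227, edgeR). The adjusted p-value was 0.0309 when DM1 library 3 was dropped, the lowest of all alternatives, and at most 0.604. Its exons share 133 bases with the small RNA gene *Gm25745*, which took between 3165 and 6042 counts in a library. They also share 415 bases with *1810014B01Rik* on the opposite strand (between 2005 and 3300 counts) and 84 with *Gm15344* (between 46 and 103). The counts of *Hsp90b1* are uncertain to that extent.

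The lectin chaperones *Calr* and *Canx*, which hold new glycoproteins until they fold, had log2 fold changes of 0.04 (interval from -0.17 to 0.25) and 0.03 (interval from -0.18 to 0.23), and neither passed the test (adjusted p = 0.811 and 0.883, edgeR). *Calr* had between 1082 and 1093 CPM in the normal libraries and 1063, 1057, and 1243 CPM in the DM1 libraries, so that DM1 libraries 1 and 2 stood below and DM1 library 3 above them. The fold change of the DnaJ protein *Dnajc3*, an inhibitor of PERK, was 0.12 (interval from -0.09 to 0.33), and that of *Sdf2l1*, a partner of ER DnaJ proteins, was 0.10 (interval from -0.26 to 0.46).

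Protein disulfide isomerases form and reshuffle the disulfide bonds of ER proteins. *Pdia4* lies on chromosome 6 (GRCm38, 47796141 to 47813430). It had 217, 216, and 211 CPM in the normal and 289, 271, and 265 CPM in the DM1 libraries. The groups did not overlap, and the gene rose with a change of 0.36 in log2 (SE 0.0775, adjusted p = 0.0181, edgeR). It was past the threshold in 2 of the 6 fits with a library left out, without DM1 library 1 and without DM1 library 3, and the adjusted p-value of these fits lay between 0.0105 and 0.0863. *Pdia6* had 308, 260, and 265 CPM in the normal and 410, 322, and 327 CPM in the DM1 libraries. Its groups did not overlap either, but the log2 fold change of 0.35 (interval from 0.08 to 0.62) missed the threshold after adjustment (adjusted p = 0.0844, edgeR). It passed with DESeq2 (adjusted p = 0.0393), with the replicate block (0.0307), and with offsets for GC content and length (0.0400), and in 5 of all 20 alternatives. It passed in 0 of the 6 fits with a library left out (adjusted p up to 0.247, edgeR). On the log2(TPM + 1) scale the difference was 0.21 (adjusted p = 0.352, limma). *Pdia3*, which acts with the lectin chaperones, and *P4hb*, the classical isomerase, had log2 fold changes of 0.14 and 0.13 (intervals from -0.14 to 0.42 and from -0.07 to 0.33) with overlapping groups. With offsets for GC content and length, *P4hb* was at 0.24 and past the threshold (adjusted p = 0.0258, edgeR).

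*Manf*, a small ER protein that binds BiP and is secreted under stress, showed the largest rise of the 34 genes in the main fit. It lies on chromosome 9 from 106838312 to 106891979 and had 158, 176, and 155 CPM in the normal and 241, 223, and 212 CPM in the DM1 libraries. The lowest DM1 library was above the highest normal one (log2 fold change 0.47, SE 0.0912, adjusted p = 0.0123, edgeR). Without normal library 1, normal library 3, or DM1 library 2 it was no longer past the threshold (adjusted p up to 0.0633 over the 6 fits). Its exons share 146 bases with *Dcaf1* and 166 with *4930524O07Rik* (at most 21 counts in a library), both on the opposite strand. On the log2(TPM + 1) scale the difference was 0.12, and the adjusted p-value over all alternatives lay between 1.17e-04 and 0.562. *Ddit4* was above *Manf* on that scale, with 0.27, and also without normal library 1 (0.47 for *Ddit4* and 0.44 for *Manf*). *Creld2*, an ER protein often induced with *Manf*, had 31.2, 30.05, and 32.1 CPM in the normal and 28.3, 26.6, and 29.4 CPM in the DM1 libraries. All of its DM1 libraries were below the normal ones, and the log2 fold change of -0.15 did not pass the test (adjusted p = 0.299, edgeR).

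The BiP partners *Dnajb11* and *Hyou1* fell. *Dnajb11* encodes a DnaJ protein that brings unfolded proteins to BiP and lies on chromosome 16 from 22857845 to 22879634. It had 64.6, 63.9, and 67.9 CPM in the normal and 45.3, 42.4, and 53.1 CPM in the DM1 libraries, without overlap (log2 fold change -0.48, SE 0.0984, adjusted p = 0.0144, edgeR). It lost the call without normal library 1, normal library 3, or DM1 library 2, with adjusted p-values up to 0.0738. *Hyou1*, the chaperone that exchanges the nucleotide of BiP, lies on chromosome 9 from 44379490 to 44392369. It had 39.0, 37.0, and 41.5 CPM in the normal and 28.9, 28.1, and 33.9 CPM in the DM1 libraries (log2 fold change -0.37, SE 0.102, adjusted p = 0.0407, edgeR). It was past the threshold in only 1 of the 6 fits with a library left out, that without DM1 library 3, with adjusted p-values between 0.0111 and 0.172 over these fits. With offsets for GC content and length its log2 fold change was -0.23 (adjusted p = 0.0677), and with library sizes alone the adjusted p-value was 0.0695. *Dnajb9*, another DnaJ protein and an inhibitor of IRE1, had a log2 fold change of -0.17 (interval from -0.46 to 0.11) with overlapping groups. With offsets for GC content and length it was -0.31 (adjusted p = 0.0688, edgeR). With the replicate block and these offsets it was -0.32 and past the threshold (adjusted p = 0.0433, edgeR).

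**Figure D3:**
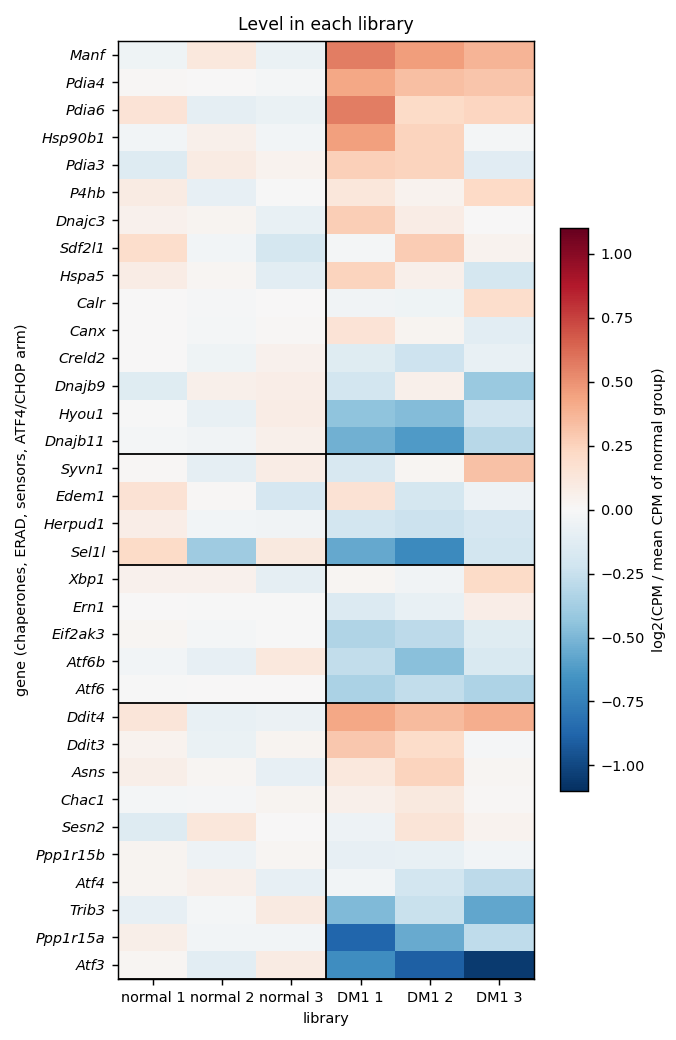
Level of each gene in each library as log2 of its CPM over the mean CPM of the normal group, with red above and blue below that mean; horizontal lines divide chaperones, ERAD genes, sensors, and the ATF4/CHOP arm. *Manf* and *Pdia4* are red in all 3 DM1 libraries, *Dnajb11*, *Hyou1*, *Atf6*, and *Atf3* are blue in all 3, and *Hspa5* and *Hsp90b1* are reddest in DM1 library 1.

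The 4 ERAD genes gave 0 called genes with edgeR, where 7.13% of all tested genes were higher and 8.73% lower. At an unadjusted p-value under 0.05 (edgeR), 2 were lower (*Herpud1* and *Sel1l*), where 16.0% of all tested genes were lower. DESeq2 called 1 of the 4 lower, *Sel1l*, where 12.3% of the genes it tested were lower. *Herpud1*, a membrane organizer of ERAD and a known UPR target, had 135, 126, and 125 CPM in the normal and 112, 109, and 113 CPM in the DM1 libraries. The groups did not overlap, and the log2 fold change of -0.21 had an adjusted p-value of 0.103 (edgeR). *Sel1l*, the adaptor of the ubiquitin ligase encoded by *Syvn1*, had the largest standard error of the 34 genes, with 96.1, 63.4, and 89.6 CPM in the normal and 56.1, 51.1, and 72.3 CPM in the DM1 libraries. Its groups overlapped (log2 fold change -0.47, SE 0.182, adjusted p = 0.123, edgeR), and the adjusted p-value was 0.0479 without normal library 2, 0.0450 with DESeq2, and 0.0409 with the replicate block. *Syvn1* and *Edem1*, which hands misfolded glycoproteins to ERAD, had log2 fold changes of 0.07 (interval from -0.22 to 0.36) and -0.02 (interval from -0.31 to 0.26).

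Of the sensors, *Atf6* was lower in the DM1 group. It lies on chromosome 1 from 170704674 to 170867771 and had between 198 and 200.3 CPM in the 3 normal and 157, 166, and 158 CPM in the DM1 libraries. All DM1 libraries were below the narrow normal range (log2 fold change -0.32, SE 0.0745, adjusted p = 0.0240, edgeR). The call was kept only without DM1 library 1 or DM1 library 3 (adjusted p between 0.0204 and 0.113 over the 6 fits), and with offsets for GC content and transcript length the log2 fold change was -0.17 (adjusted p = 0.0774, and between 0.00214 and 0.113 over all alternatives). Its paralog *Atf6b* had 20.2, 19.4, and 22.4 CPM in the normal and 17.2, 14.99, and 18.4 CPM in the DM1 libraries, and *Eif2ak3* had 31.3, 30.3, and 30.8 CPM in the normal and 24.5, 25.2, and 28.2 CPM in the DM1 libraries. In both genes the DM1 libraries lay below the normal ones, but the log2 fold changes of -0.30 and -0.25 were not past the threshold (adjusted p = 0.122 and 0.104, edgeR). Without DM1 library 3 the adjusted p-value of *Eif2ak3* was 0.0397, and with offsets for GC content and length its log2 fold change was -0.10 (adjusted p = 0.399). *Ern1* and *Xbp1* had log2 fold changes of -0.05 (interval from -0.24 to 0.14) and 0.07 (interval from -0.14 to 0.28), with overlapping groups.

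In the ATF4/CHOP arm, the transcription factors at its head did not pass the test. *Atf4* had 248, 253, and 229 CPM in the normal and 239, 212, and 199 CPM in the DM1 libraries, and *Ddit3* had 52.2, 48.6, and 52.2 CPM in the normal and 62.4, 58.5, and 50.5 CPM in the DM1 libraries. The groups overlapped in both, with log2 fold changes of -0.17 (interval from -0.38 to 0.05) and 0.16 (interval from -0.06 to 0.38). With offsets for GC content and length the direction of *Ddit3* turned, to -0.10 (adjusted p = 0.330). The tables list *Ddit3* in 2 rows that share 105 exonic bases, and the other row had at most 6 counts in a library, so the values are those of the main row. The exons of *Ddit3* also share 68 bases with *Mars* on the opposite strand, and whether the counting used strand is not given in the sources used here.

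*Atf3*, a stress-induced factor that ATF4 raises, fell the most of the 34 genes. It lies on chromosome 1 from 191170296 to 191218039 and had raw counts of 792, 527, and 689 in the normal group and of 429, 355, and 298 in the DM1 group. Scaled by TMM, these were 9.42, 8.58, and 9.86 CPM and 5.77, 4.98, and 4.48 CPM. The highest DM1 library was well below the lowest normal one, so that the DM1 level was 0.547 times the normal level (log2 fold change -0.87, SE 0.142, adjusted p = 0.00666, edgeR). Dropping single libraries moved it between -0.96 and -0.79, with adjusted p-values from 0.00757 to 0.0385.

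*Ppp1r15a*, which encodes the stress-induced subunit (GADD34) that leads a phosphatase back to eIF2α, lies on chromosome 7 from 45522916 to 45526268. It had 37.3, 34.9, and 35.02 CPM in the normal and 19.5, 24.4, and 29.4 CPM in the DM1 libraries (log2 fold change -0.55, SE 0.142, adjusted p = 0.0333, edgeR). The groups did not overlap, and the DM1 libraries were more spread than the normal ones. The call was lost without any 1 of the normal libraries or without DM1 library 2 (adjusted p up to 0.112), and with library sizes alone (0.0573). Its constitutive counterpart *Ppp1r15b* had between 61.0 and 64.9 CPM in the normal and between 59.5 and 62.3 CPM in the DM1 libraries, a log2 fold change of -0.07 (interval from -0.23 to 0.10).

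*Trib3*, a pseudokinase that ATF4 and CHOP raise and that restrains ATF4, lies on chromosome 2 from 152337422 to 152344032. It had 19.1, 19.97, and 21.7 CPM in the normal and 14.5, 17.1, and 13.6 CPM in the DM1 libraries, without overlap (log2 fold change -0.43, SE 0.121, adjusted p = 0.0452, edgeR). It was past the threshold in only 1 of the 6 fits with a library left out, that without DM1 library 2, where the adjusted p-value was 0.0495, and it reached 0.177 in the others. The call was also lost with the replicate block (adjusted p = 0.0632), with offsets for GC content and length (0.0958), and without mitochondrial genes (0.0577). *Ddit4*, an inhibitor of mTORC1 that several stresses induce, was the only called gene of the arm that rose. It lies on chromosome 10 from 59949669 to 59951834 and had 57.2, 49.2, and 49.7 CPM in the normal and 70.0, 66.3, and 68.6 CPM in the DM1 libraries (log2 fold change 0.39, SE 0.0866, adjusted p = 0.0188, edgeR). Its call was lost without normal library 2, normal library 3, or DM1 library 2 (adjusted p up to 0.0899).

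Of the remaining genes of the arm, *Asns*, the asparagine synthetase, had 130.3, 127, and 117 CPM in the normal and 135, 148, and 127 CPM in the DM1 libraries, a log2 fold change of 0.13 (interval from -0.07 to 0.34). *Chac1*, which breaks down glutathione, had between 25.1 and 25.9 CPM in the normal and between 25.6 and 27.3 CPM in the DM1 libraries, a log2 fold change of 0.06 (interval from -0.13 to 0.25). *Sesn2*, a stress-induced regulator of mTORC1, had a log2 fold change of 0.04 (interval from -0.19 to 0.28). The groups overlapped in these 3 genes.

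**Figure D4:**
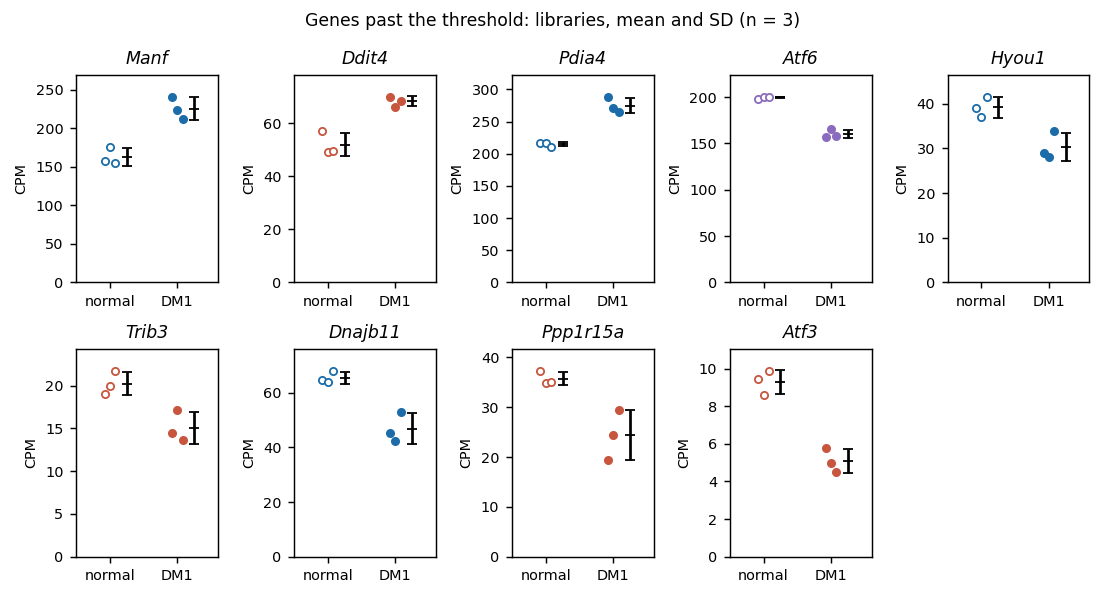
CPM in each library for the 9 genes past the threshold, in order of their fold change; open points are the normal and filled points the DM1 libraries, with bars for the mean and SD (n = 3), and each axis starts at 0. In all 9 genes the groups do not overlap, and *Atf3* shows the largest drop, from 8.58 CPM or more in the normal to 5.77 CPM or less in the DM1 libraries.

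The branches were then set side by side. Of the 19 chaperone and ERAD genes, the targets of ATF6 and XBP1, 2 were higher and 2 lower (10.5% each, where 7.13% of all tested genes were higher and 8.73% lower), with a median log2 fold change of 0.05. Of the 10 genes of the ATF4/CHOP arm, 1 was higher (10%) and 3 were lower (30%), with a median of -0.01, and the difference between the branches was not tested. The shares of higher genes in both branches and of lower genes in the chaperone and ERAD branch were near those of all tested genes. Relative to the mean of the normal group, the median gene of the chaperone and ERAD branch was at 0.12, 0.04, and -0.06 on the log2 scale in DM1 libraries 1, 2, and 3, and that of the ATF4/CHOP arm at -0.04, 0.01, and -0.02. The normal libraries lay between -0.02 and 0.01 for the chaperone and ERAD branch and between -0.03 and 0.03 for the ATF4/CHOP arm. By this median in CPM, the chaperone and ERAD branch ran highest in DM1 library 1 and lowest in DM1 library 3. The sums, a different measure, gave another order. By summed TPM (3943, 3891, and 4302) DM1 library 3 was the highest of the DM1 libraries, below normal library 1 (4391). By summed CPM, DM1 library 3 (6474) was the lowest of the DM1 libraries but above the normal ones (6225 to 6386). The DM1 medians of both branches included values above and below 0.

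Other genes of the pathway were taken from lists of related genes. Of 29 tested genes of other ER folding enzymes, 6 rose (20.7%, against 7.13% of all tested genes) and 0 fell (against 8.73%). At an unadjusted p-value under 0.05, edgeR gave 12 higher and 5 lower, where 14.7% of all tested genes were higher and 16.0% lower. DESeq2 called 7 higher and 2 lower, where 11.0% of the genes it tested were higher and 12.3% lower. The largest change was in *Ero1l*, the oxidase that reoxidizes protein disulfide isomerases and a known target of CHOP and of hypoxia. It had 129, 131, and 128 CPM in the normal and 313, 326, and 230.5 CPM in the DM1 libraries (log2 fold change 1.16, SE 0.130, adjusted p = 0.00204, edgeR), past the fold cutoff as well and called in all 6 fits with a library left out. The prolyl isomerases *Fkbp7* and *Fkbp11* rose with log2 fold changes of 0.83 and 0.75 (adjusted p = 0.00406 and 0.0156, edgeR). *Fkbp11* lost its call without normal library 3 or DM1 library 2.

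Of 23 genes of the translocon, signal peptidase, and glycosylation complex, 5 rose (21.7%, against 7.13% of all tested genes) and 2 fell (8.7%, against 8.73%). DESeq2 called 8 higher and 2 lower, where it called 11.0% of the genes it tested higher and 12.3% lower. The small translocon subunits *Sec61b* and *Sec61g* rose with log2 fold changes of 0.85 and 0.78 (adjusted p = 0.00790 and 0.00227, edgeR), as did the signal peptidase subunit *Sec11c* with 0.51 (adjusted p = 0.0126). The pore subunit *Sec61a1* and the receptor subunit *Srprb* fell, with -0.44 and -0.75 (adjusted p = 0.0146 and 0.0122, edgeR). Of 24 tested genes of other ERAD factors, 1 rose (4.17%, against 7.13% of all tested genes) and 6 fell (25%, against 8.73%). The selenoprotein gene *Selenok* rose (log2 fold change 0.54, adjusted p = 0.0135, edgeR). Among those that fell were the ubiquitin ligase gene *March6* with a log2 fold change of -0.40 (adjusted p = 0.0129) and the conjugating enzyme gene *Ube2g2* with -0.39 (adjusted p = 0.0208).

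Of 29 regulators of the UPR and of eIF2α phosphorylation, 2 rose (6.9%, against 7.13% of all tested genes) and 6 fell (20.7%, against 8.73%). *Casp12*, a caspase gene of the ER, and *Bloc1s1*, whose mRNA IRE1 is known to cut, rose with log2 fold changes of 0.48 and 0.45 (adjusted p = 0.0264 and 0.00912, edgeR), and that of *Bloc1s1* was 0.17 with offsets for GC content and length (adjusted p = 0.118). *Bloc1s1* shares 720 exonic bases with *Rdh5* on the same strand, which had between 4142 and 6117 counts in the normal and between 6506 and 7239 in the DM1 libraries, so its counts and their rise are uncertain. *Eif2ak1*, another kinase of eIF2α, fell with -0.48 (adjusted p = 0.00666), and its exons share 487 bases with *Aimp2* on the opposite strand. *Nfya*, a subunit of NF-Y, and *Mbtps1*, the protease that cuts ATF6, fell with -0.51 and -0.40 (adjusted p = 0.0272 and 0.0311). Of 43 other ATF4 targets, 4 rose (9.3%, against 7.13% of all tested genes) and 10 fell (23.3%, against 8.73%). *Nupr1*, a stress-induced chromatin protein, rose with a log2 fold change of 0.87 (adjusted p = 0.00114, edgeR), *Pck2* of mitochondrial gluconeogenesis with 0.60, and *Psph* of serine synthesis with 0.52. The exons of *Psph* share 452 bases with *Cct6a* on the opposite strand, which had between 19477 and 28394 counts in a library, so its counts are uncertain to that extent. The amino acid transporter *Slc38a2*, the factor *Jdp2*, and *Cth* of cysteine synthesis fell, with -0.50, -0.45, and -0.79 (adjusted p = 0.00501, 0.00710, and 0.00769, edgeR). The medians of these 5 lists were 0.16, 0.15, -0.11, -0.11, and -0.05, in the order given, beside 0.02 for all tested genes.

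Of the named genes of these lists, *Ero1l*, *Fkbp7*, *Sec61b*, *Sec61g*, *Eif2ak1*, *Bloc1s1*, *Nupr1*, *Pck2*, *Slc38a2*, *Jdp2*, and *Cth* were called in all 6 fits with a library left out. The others each lost their call without normal library 3, and all of them except *Sec11c* and *Selenok* also without DM1 library 2. Across these fits the folding enzymes had between 2 and 10 higher and between 0 and 3 lower genes, and the other ATF4 targets between 2 and 6 higher and between 3 and 11 lower. Translocon genes had between 2 and 8 higher and 0 and 4 lower, other ERAD factors between 0 and 1 higher and 1 and 6 lower, and the regulators between 1 and 3 higher and 1 and 7 lower. With offsets for GC content and length, 8 of the other ATF4 targets were higher and 6 lower, so that the prevailing direction of their calls turned. Of all 19005 tested genes, these offsets gave 1563 higher and 1631 lower (16.8% called). On the log2(TPM + 1) scale, limma called 1 higher and 5 lower of them, 3 higher and 1 lower folding enzyme, 2 higher and 1 lower translocon gene, 0 higher and 4 lower other ERAD genes, and none of the regulators. Over all tested genes, limma called 6.54% on that scale.

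**Figure D5:**
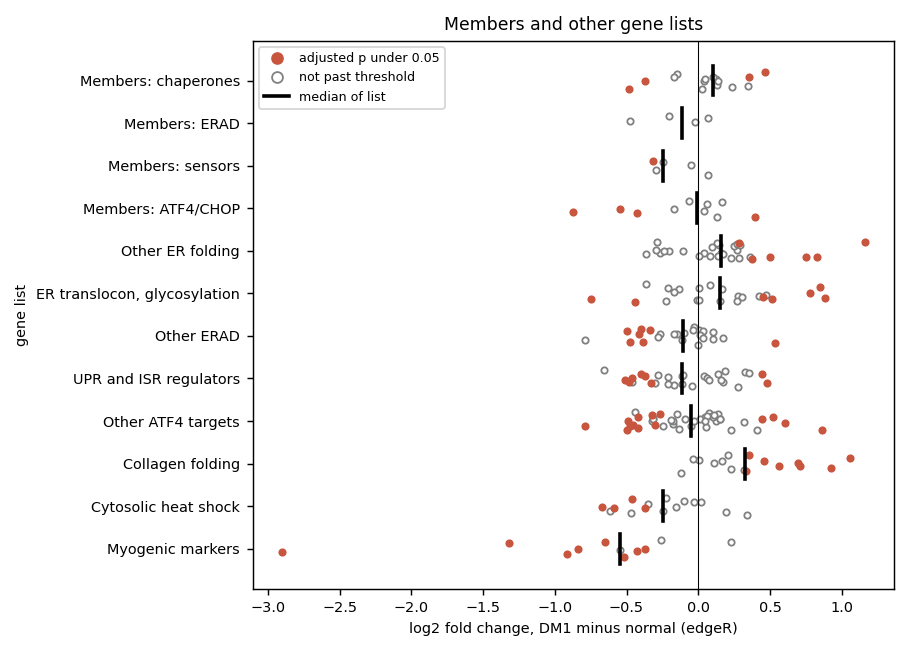
Log2 fold change (horizontal axis, DM1 minus normal, edgeR) of the tested genes of each list; red points have an adjusted p-value under 0.05, open points do not, and black bars are list medians. The 4 upper rows are the 34 genes, with called points on both sides of 0 among chaperones and in the ATF4/CHOP arm, and the myogenic markers at the bottom have the lowest median, -0.55.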

How the data were processed

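The reads had been trimmed with Trim Galore, aligned to GRCm38 with HISAT2, and quantified with StringTie. The authors deposited a table of counts per gene without normalization, and per library a table of coverage (signal), FPKM, and TPM, which StringTie scales for length and library size. Coverage multiplied by length and divided by 75 bases gave the deposited count within 1 count in 99.2% of the genes with a single transcript. A count thus stands for 75 aligned bases, which need not be a read. All 6 count columns were used. FPKM was not analysed further.

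Genes were filtered with filterByExpr (minimum count 10), which left 19005, and scaled by TMM. CPM values are scaled this way. The main test was the quasi-likelihood test of edgeR (robust, without covariates, adjusted by Benjamini-Hochberg over all tested genes) at an adjusted p-value under 0.05. The coefficient of variation between replicates was 0.221. Standard errors are the log2 fold change over the root of F, and 95% intervals use the t distribution. The floor of 3 counts was between 0.0371 and 0.0486 CPM. Such a floor covers counting error only. No pair of libraries agreed within sampling noise (chi-square per degree of freedom 11.9 to 75.3, taken on counts divided by 4).

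The members and lists were chosen with earlier results of these data known. All 34 members are given, with the 3 called genes of smallest p in each direction of each pathway list, except 1 gene that is not reported here. Tried as alternatives were DESeq2, edgeR with the size factors of DESeq2 or with library sizes alone, other filters, counts divided by 4, limma-trend on TPM in log2 with 1 or 0.1 added, the replicate number as a block, and each library left out. Chosen after seeing the data were offsets for GC content and length of the longest transcript (known for 99.5% of genes), the same with the block, leaving out mitochondrial genes, and both *Ddit3* rows summed. The code was tested on simulated data. The tools were R 4.3.3, edgeR 4.0.16, limma 3.58.1, DESeq2 1.42.0, and pandas 2.3.3.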

Additional observations from a re-analysis of the deposited data

How the results depend on the processing

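The 9 called genes kept their direction in all 20 alternatives. The counts moved by more than 1.5 times without single libraries, with offsets, and on the TPM scale. There limma-trend on log2(TPM + 1) called 0 higher and 1 lower gene and on log2(TPM + 0.1) 0 and 2. Over all tested genes, these settings called 6.54% and 6.76%. Of the chaperone and ERAD genes, these called 0 higher and 0 and 1 lower, and of the ATF4/CHOP arm 0 higher and 1 lower each. The medians there were -0.0910 and -0.0911 for chaperones and ERAD (0.05 in the main fit). For the ATF4/CHOP arm they were -0.12 and -0.13 (-0.01 in the main fit). The medians of all tested genes were -0.06 and -0.09 (0.02 in the main fit), a shift of -0.08 and -0.11. With offsets for GC content and length, 5 genes were higher (4 chaperones, *P4hb* and *Pdia6* added) and 3 lower (1 chaperone). Of all 19005 tested genes, this setting gave 1563 higher and 1631 lower (16.8% called). With the block and these offsets, 5 were higher (4 chaperones) and 4 lower. Of all tested genes, 1546 were then higher and 1598 lower (16.5% called). Library sizes alone left 1 lower chaperone gene, where 13.5% of all tested genes were called. The causes were not tested. With each library left out, the members higher ranged from 0 to 4 and lower from 1 to 6, the chaperone and ERAD genes from 0 to 3 and 0 to 2, the ATF4/CHOP arm from 0 to 1 and 1 to 2, and the medians from 0.0345 to 0.0796 and from -0.0366 to 0.0169. The libraries share replicate numbers only: same-numbered libraries deviated together with correlations of 0.0675, 0.0222, and 0.0263, and the third normal library correlated best with the second DM1 library. With the replicate block, 4 genes were higher and 6 lower (*Pdia6* and *Sel1l* gained and *Trib3* lost a call), and 2823 of all genes were called in place of 3016. Counts stand for 75 bases each, so the totals need not equal depth in fragments, and dividing by 4 changed no member's call.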

Other observations

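Of 16 genes for collagen and its folding enzymes in the ER, 8 rose and 0 fell by edgeR and by DESeq2, and at an unadjusted p-value under 0.05 edgeR gave 9 higher and 0 lower, where 14.7% and 16.0% of all tested genes were. DESeq2 called 11.0% of the genes it tested higher and 12.3% lower. The 8 genes were 50% of the list, where 7.13% of all tested genes rose. With single libraries left out between 4 (without normal library 2 or 3) and 8 rose. On the log2(TPM + 1) scale limma called 2, where 6.54% of all tested genes were called. *Col1a1*, the main chain of type I collagen, had 292, 269, and 290.2 CPM in the normal and 548, 586, and 638 CPM in the DM1 libraries (log2 fold change 1.06, adjusted p = 9.16e-04, edgeR). The lysyl hydroxylase *Plod2* and the prolyl hydroxylase subunit *P4ha3* rose with log2 fold changes of 0.69 and 0.93 (adjusted p = 0.00272 and 0.00487, edgeR), and both were called in all 6 fits with a library left out. The median of the list was 0.32, beside 0.02 for all tested genes.

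Of 15 genes of cytosolic and mitochondrial heat shock proteins, 0 rose and 4 fell by edgeR. DESeq2 called 0 higher and 6 lower, where it called 11.0% of the genes it tested higher and 12.3% lower. At an unadjusted p-value under 0.05 edgeR gave 1 higher and 8 lower, where 14.7% of all tested genes were higher and 16.0% lower. The 4 genes were 26.7% of the list, where 8.73% of all tested genes fell, and with single libraries left out between 1 (without normal library 3 or DM1 library 2) and 7 (without DM1 library 1) fell. *Hsph1*, a cytosolic relative of *Hyou1*, had 123, 113, and 115 CPM in the normal and 70.1, 72.0, and 78.1 CPM in the DM1 libraries (log2 fold change -0.67, adjusted p = 0.00249, edgeR). *Hsp90ab1*, the cytosolic relative of *Hsp90b1*, fell by 0.59 on the log2 scale (adjusted p = 0.0125) and *Bag3* by 0.46 (adjusted p = 0.0170), and each lost its call without 3 of the 6 libraries in turn, among them normal library 3 and DM1 library 2.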
